A study of Homo sapiens with 4 samples.

Results

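The Notch genes described here are 10 rows of the expression table of KYSE150 cells, an established esophageal squamous cell carcinoma line, chosen by gene name: the receptors NOTCH1, NOTCH2 and NOTCH3, the ligands JAG1, JAG2 and DLL1, the DNA-binding factor RBPJ, the inhibitor NUMB, and the target genes HES1 and HEY1. All 10 are among the 17825 rows, and all 10 passed the filter on low counts that left 14207 genes for testing, HEY1 through control libraries of 12 and 19 counts. Bulk RNA-seq was made of 2 control libraries, labelled as a negative control, and 2 libraries of cells transfected with an siRNA against CEBPG, numbered 1 in the titles. CEBPG encodes C/EBP gamma, a basic leucine zipper protein. Both groups were grown in the same medium with serum. The labels state no other genotype difference, and they give neither the dose of siRNA nor the time after transfection. Whether the 2 libraries of a group stem from separate cultures is not labelled, so the spread behind the p-values is that between libraries and may be technical.

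Notch receptors are cut in steps after a ligand on a neighbouring cell binds them, first by an ADAM protease and then by gamma-secretase, and the released intracellular part enters the nucleus. There it joins RBPJ and a Mastermind protein and turns on genes of the HES and HEY families, which encode repressors, and NRARP, a feedback inhibitor. In stratified squamous epithelium, NOTCH1 is known for promoting differentiation, and its gene is often mutated in squamous carcinomas of the esophagus.

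Library totals ranged from 15432762 to 15536501 counts. CEBPG itself was at 792 and 751 counts in control and at 214 and 204 counts in siRNA libraries, a log2 fold change of -1.98 ± 0.077 (SE, with adjusted p = 1.82e-11 in edgeR). Of all genes tested, 25.5% were called higher after CEBPG siRNA and 28.8% lower (edgeR, adjusted p under 0.05), and these shares are the background for every count below. With total counts in place of TMM scaling, 4939 genes were higher and 3079 lower, against 3617 and 4098, and the overall median log2 fold change moved from 0.0048 to 0.10. All 8 squamous epithelial markers were listed, with KRT5 at 111 to 143 RPKM, the authors' read counts per transcript length and library total, and their summed level was 620 to 637 RPKM in control and 554 to 567 RPKM in siRNA libraries. Of these markers SFN was lower, at 280.45 and 301.21 RPKM in control and 166.54 and 169.51 RPKM in siRNA libraries. KRT14 was also lower in both siRNA libraries, while the other 6, KRT5 and TP63 among them, were higher. Of those 6, EPCAM hardly differed, at 77.15 and 77.61 RPKM in control and 77.81 and 78.63 RPKM in siRNA libraries. RPKM carries no TMM factors. Of the markers of other cells, 1 of 3 for leukocytes, 2 of 3 for endothelial cells, 2 of 4 for fibroblasts and 1 of 5 for retina had a row. The summed endothelial markers were 1.23 RPKM in both control libraries and 2.23 RPKM in both siRNA libraries, and the part of these markers in the results was not tested. In bulk libraries, fewer cells of a type and less RNA per cell cannot be told apart.

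Of the 10 Notch genes, 6 rose and 2 fell after CEBPG siRNA, against the background of 25.5% and 28.8%. NOTCH1, NOTCH2, JAG2, DLL1, RBPJ and NUMB rose, and JAG1 and HES1 fell. The median log2 fold change of the 10 was 0.19, against 0.0048 for all genes tested. The sizes were modest: DLL1 and NOTCH1 rose 1.51-fold and 1.49-fold, and every other called member changed by 1.30-fold or less. The calls for NOTCH2 and HES1 depended on the settings, as given beside them below.

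**Figure D1:**
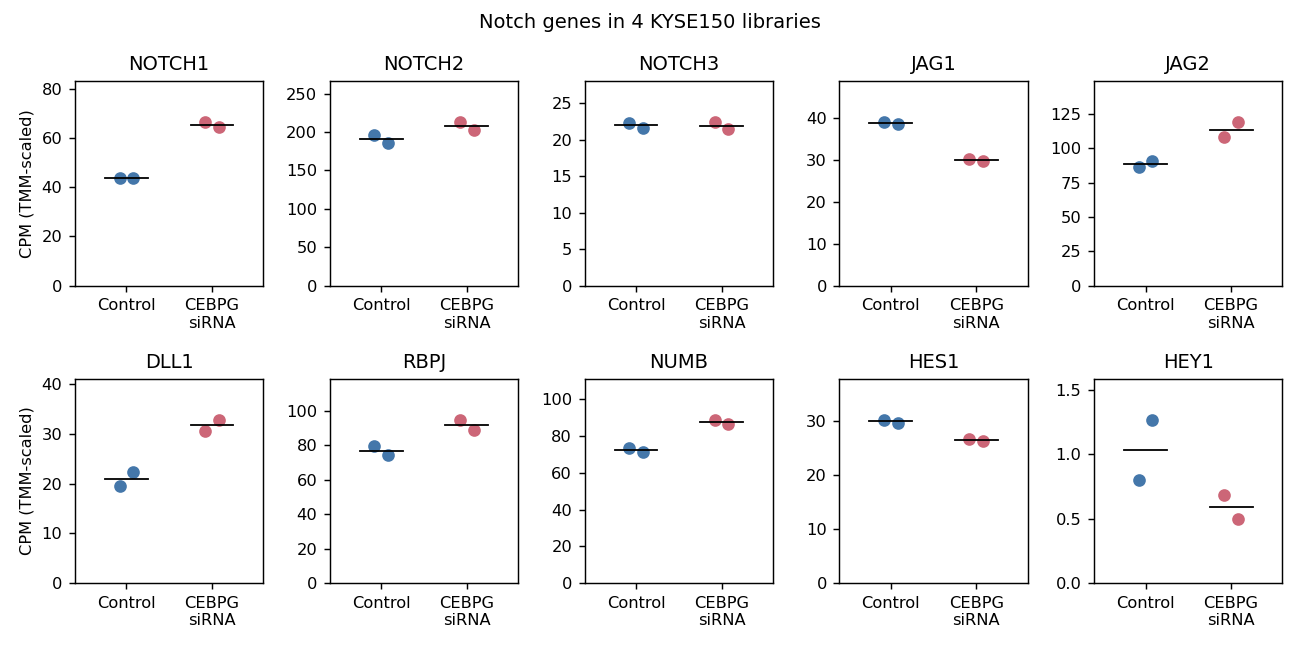
Levels of the 10 Notch genes in CPM (counts divided by library sizes after TMM correction) in each library, with points for the 2 libraries of a group and a line for their mean. The groups overlap for NOTCH3, and the NOTCH1 libraries lie at 43.7 and 43.8 CPM in control cells and 64.3 and 66.5 CPM in siRNA cells. The share of all tested genes without overlap was not computed, so a lack of overlap by itself says little about these genes.

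Among the receptors, NOTCH1 rose, NOTCH2 rose slightly and NOTCH3 did not pass the test. NOTCH1 (ENSG00000148400, chromosome 9 at 136494433 to 136545786, minus strand, GRCh38) had 658 and 655 counts in control libraries and 1064 and 1029 in siRNA libraries. Both siRNA libraries lay well above both controls. Its level went from 43.8 ± 0.079 to 65.4 ± 1.53 CPM (SD, n = 2). This was a log2 fold change of 0.58 ± 0.056 (SE, with adjusted p = 4.85e-07 in edgeR). The rise passed the threshold in all 13 alternatives, with log2 fold changes from 0.38 to 0.68.

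NOTCH2 (chromosome 1 at 119911553 to 120069626, minus strand) was the receptor with the most reads, with 2937 and 2791 counts in control and 3405 and 3235 in siRNA libraries. The CPM ranges of 186 to 196 and 202 to 213 did not overlap but lay close together. The log2 fold change was 0.12 ± 0.043 (SE, with adjusted p = 0.0274 in edgeR), and the call was lost in 7 of 13 alternatives, among them DESeq2, no filter on low counts and the omission of any one library. Over the alternatives its adjusted p ran from 0.000268 to 0.468. NOTCH2NL, a partial copy of NOTCH2 with nearly the same sequence, is a separate row with 36 to 56 counts per library. The sources used here do not say how reads were shared between these genes, so the NOTCH2 values are uncertain to that extent.

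NOTCH3 (chromosome 19 at 15159038 to 15200981, minus strand) had 335 and 324 counts in control libraries and 359 and 343 in siRNA libraries. In CPM the groups overlapped, at 21.6 to 22.3 in control and 21.4 to 22.4 in siRNA cells. The log2 fold change was -0.0015 ± 0.081 (SE, with adjusted p = 0.989 in edgeR), with a 95% interval of -0.16 to 0.16. NOTCH4 was not analysed here, as the table used has no row of that name.

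Per length, NOTCH2 was the leading receptor in both groups. In control libraries the deposited RPKM of NOTCH2 was 11.24 and 10.7, that of NOTCH1 4.28 and 4.27, and that of NOTCH3 2.45 and 2.37. In siRNA libraries NOTCH1 reached 6.97 and 6.72 RPKM, while NOTCH2 was at 13.12 and 12.42 and NOTCH3 at 2.64 and 2.52. The order of the receptors was therefore the same in all 4 libraries. NOTCH1 made up 24.2% ± 0.57 of the summed receptor RPKM in control and 30.8% ± 0.25 in siRNA cells (SD, n = 2), and the share of NOTCH2 went from 62.1% ± 0.60 to 57.5% ± 0.27. These shares do not overlap between groups, but with 2 libraries against 2 the smallest exact two-sided p is 0.33, so no test is given.

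**Figure D2:**
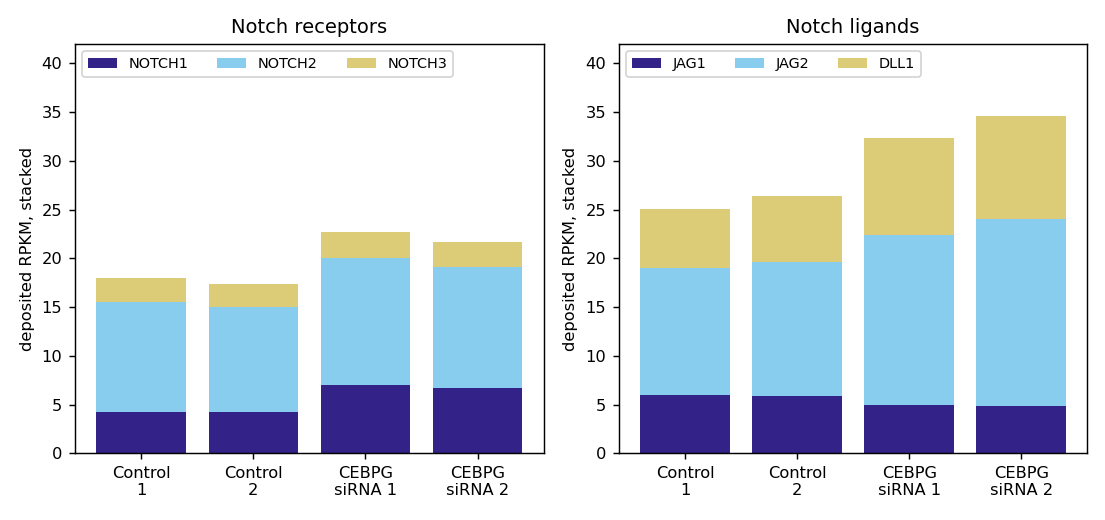
Deposited RPKM of the 3 receptors and of the 3 ligands, stacked for each of the 4 libraries. The receptor stacks rise from 17.3 and 18.0 to 21.7 and 22.7 RPKM mainly through NOTCH1 and NOTCH2, and in the ligand stacks the JAG1 segment shrinks while JAG2 and DLL1 grow. RPKM carries no TMM factors. The log2 fold change of NOTCH2 was 0.22 with total counts alone and 0.12 with TMM (edgeR).

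The ligands moved in opposite directions. Jagged and Delta-like ligands are transmembrane proteins of the signal-sending cell. DLL1 (chromosome 6 at 170282206 to 170306565, minus strand) had 295 and 335 counts in control and 488 and 524 in siRNA libraries. The lower siRNA library was above the higher control library, at 30.5 against 22.4 CPM. DLL1 rose from 21.0 ± 1.92 to 31.6 ± 1.6 CPM (SD, n = 2). This was a log2 fold change of 0.59 ± 0.083 (SE, with adjusted p = 2.49e-05 in edgeR), and passed in all 13 alternatives.

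JAG2 (chromosome 14 at 105140981 to 105168824, minus strand) had 1300 and 1357 counts in control and 1726 and 1896 in siRNA libraries. Its groups did not overlap, with siRNA replicate 2 the highest at 119 CPM. The log2 fold change was 0.35 ± 0.054 (SE, with adjusted p = 4.8e-05 in edgeR). Without Control replicate 1 it was 0.32 with an edgeR adjusted p of 0.053, the alternative of 13 in which the call was lost. In GENCODE 8.0% of the JAG2 exon bases overlap another gene on the same strand, which has no row in the table.

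JAG1 (chromosome 20 at 10637684 to 10673999, minus strand) had 587 and 579 counts in control and 483 and 476 in siRNA libraries. It was the one ligand of the 3 that was lower in both siRNA libraries. It fell from 38.9 ± 0.32 to 30.0 ± 0.30 CPM (SD, n = 2). This was a log2 fold change of -0.37 ± 0.066 (SE, with adjusted p = 0.000205 in edgeR), and passed in all 13 alternatives, with values from -0.40 to -0.23. The RPKM of JAG2 was 2.18 and 2.30 times that of JAG1 in control libraries and 3.52 and 3.92 times in siRNA libraries. Of the summed RPKM of these 3 ligands, JAG1 held 23.2% ± 1.0 in control and 14.7% ± 0.89 in siRNA cells (SD, n = 2), and DLL1 24.8% ± 1.3 and 30.7% ± 0.0034.

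RBPJ and NUMB both rose. RBPJ (chromosome 4 at 26163455 to 26435131, plus strand), the DNA-binding factor that the intracellular receptor joins, had 1192 and 1116 counts in control and 1517 and 1418 in siRNA libraries. The groups were apart, at 74.5 to 79.4 and 88.6 to 94.8 CPM. Its log2 fold change was 0.25 ± 0.054 (SE, with adjusted p = 0.000928 in edgeR). The call was lost without Control replicate 2 (adjusted p = 0.099) and without siCEBPG replicate 1 (adjusted p = 0.0633), both from edgeR.

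NUMB (chromosome 14 at 73275107 to 73458617, minus strand), an endocytic adaptor that lowers Notch at the membrane, had 1105 and 1064 counts in control and 1419 and 1380 in siRNA libraries. Its control libraries lay at 71.0 and 73.6 CPM and its siRNA libraries at 86.3 and 88.7, with no overlap. The log2 fold change was 0.28 ± 0.050 (SE, with adjusted p = 0.000253 in edgeR), past the threshold in all 13 alternatives. NUMBL, the close relative of NUMB, moved the other way with a log2 fold change of -0.23 ± 0.050 (SE, with adjusted p = 0.00116 in edgeR). NUMBL was chosen after its values were seen.

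HES1 is the best known direct target of the RBPJ complex, and its promoter is shown because it is a textbook example of a promoter with RBPJ words. The sequence is RefSeq's (GRCh38.p14, chr3:194135898-194136197, plus strand), from 250 bases before to 50 bases after the gene start, and the capitals mark matches to the RBPJ core TGGGAA or its variant TGTGAA on either strand.
HES1 promoter: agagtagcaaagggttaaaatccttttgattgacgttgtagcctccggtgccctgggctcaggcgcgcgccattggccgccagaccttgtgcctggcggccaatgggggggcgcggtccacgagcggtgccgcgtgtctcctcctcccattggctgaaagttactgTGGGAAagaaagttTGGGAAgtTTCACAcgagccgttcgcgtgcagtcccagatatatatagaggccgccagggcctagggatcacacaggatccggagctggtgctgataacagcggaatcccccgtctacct
The core TGGGAA begins 84 and 70 bases before the gene start on the plus strand, and the variant TGTGAA lies on the minus strand, as TTCACA, starting 62 bases before it. Of 35116 promoters of this length, 24.0% hold the core and 13.1% the variant on either strand. The N box CACNAG, a word that HES1 itself is known to bind, occurs in the same HES1 window and in 38.0% of all promoters. A match is only a description of letters.

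HES1 was the most abundant member per length in control cells and fell slightly, at the edge of the threshold. Its counts were 454 and 444 in control and 427 and 420 in siRNA libraries. The siRNA libraries were both lower, at 26.3 and 26.7 CPM against 29.6 and 30.2. The log2 fold change was -0.18 ± 0.072 (SE, with adjusted p = 0.049 in edgeR). This call was lost in 11 of 13 alternatives, among them every scaling other than TMM, DESeq2, limma on RPKM and the omission of any one library. Its adjusted p ran from 0.0389 to 0.383. With total counts alone the log2 fold change was -0.08.

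HEY1, a second repressor of the same type, was close to the limit of detection. It had 12 and 19 counts in control and 11 and 8 in siRNA libraries. The ranges do not overlap but the counts are few, and the highest siRNA library differs from the lowest control by 1 count. The log2 fold change of -0.79 ± 0.40 (SE, with adjusted p = 0.107 in edgeR) did not pass the threshold in any of 12 alternatives with an adjusted p, and DESeq2 gave none. Its control RPKM of 0.24 and 0.38 placed it at the 7.13 percentile of tested genes, against the 74.1 percentile for HES1.

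The order of the 10 levels per length in control cells was HES1, JAG2, NOTCH2, RBPJ, NUMB, DLL1, JAG1, NOTCH1, NOTCH3 and HEY1, from 14.0 ± 0.21 to 0.31 ± 0.099 RPKM (SD, n = 2). Neighbours overlapped in their 2 libraries only for NUMB with DLL1 and for DLL1 with JAG1. In siRNA cells JAG2 came first, at 18.3 ± 1.2 RPKM, ahead of HES1 at 13.3 ± 0.19 RPKM. NOTCH1 stood above JAG1 there, at 6.84 ± 0.18 against 4.92 ± 0.064 RPKM, the reverse of the control order of 4.28 ± 0.0071 and 5.96 ± 0.049. RPKM is scaled to the library total, without TMM factors.

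**Figure D3:**
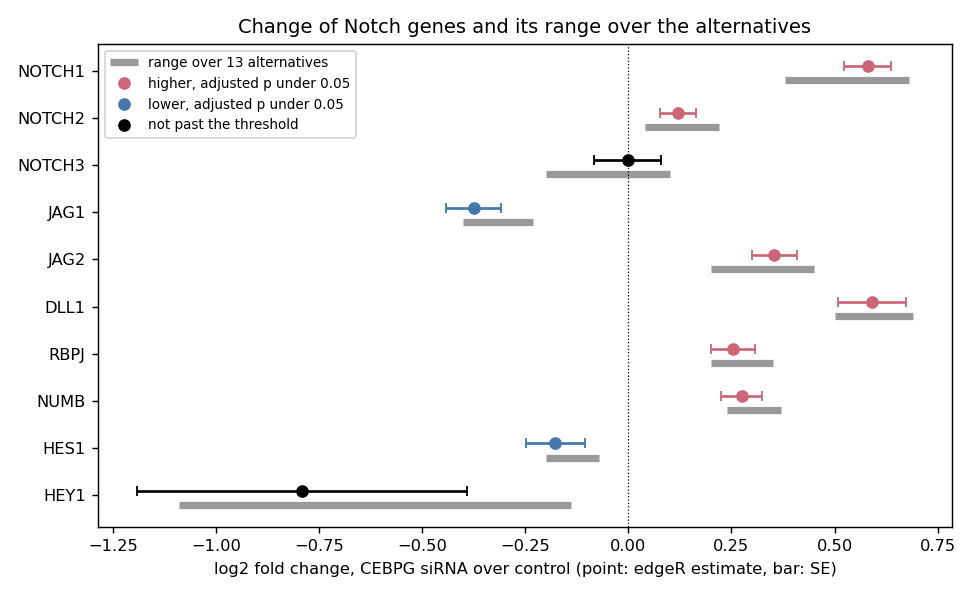
Log2 fold change of the 10 Notch genes, CEBPG siRNA over control, as the edgeR estimate with its SE (coloured by call), and in grey the range over 13 alternatives. Only the grey range of NOTCH3 crosses 0, from -0.20 to 0.10, and HEY1 has the widest range, from -1.09 to -0.14.

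A combined trend on base composition and transcript length went with some of these values. Across tested genes the median log2 fold change went from -0.091 for transcripts below 40% GC to 0.040 for those above 60%. The transcripts of NOTCH1, NOTCH3 and JAG2 hold 62.9%, 63.1% and 64.0% GC, against a median of 49% over matched genes. Those of NOTCH2 and HES1 are near that median, at 49.4% and 49.9% GC, and are 11389 and 1578 bases long. The combined trend was 0.101 for NOTCH2 and -0.072 for HES1. The parts of GC content and length in it were not separated. With the trend on GC content and transcript length removed, NOTCH1 was at 0.38 (edgeR adjusted p = 2.08e-05), JAG2 at 0.20 (edgeR adjusted p = 0.00433), NOTCH2 at 0.04 (edgeR adjusted p = 0.468) and HES1 at -0.09 (edgeR adjusted p = 0.332). NOTCH3 was then called lower, at -0.20 (edgeR adjusted p = 0.0464). DLL1 (0.53), NUMB (0.30), RBPJ (0.35) and JAG1 (-0.40) kept their direction and stayed past the threshold.

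Around these members, 77 pathway genes were listed by 8 roles, the 10 members included. Of these, 69 were in the table and 68 were tested, of which 31 rose and 17 fell, where the background was 25.5% and 28.8%, and 45.6% of the tested ones were thus higher. Their median log2 fold change was 0.11, against 0.0048 for all genes tested. Outside the 10 members, 25 of 58 rose and 15 fell. The 31 and the 25 that rose include MAML3, which passed the filter on low counts only through the siRNA libraries.

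**Figure D4:**
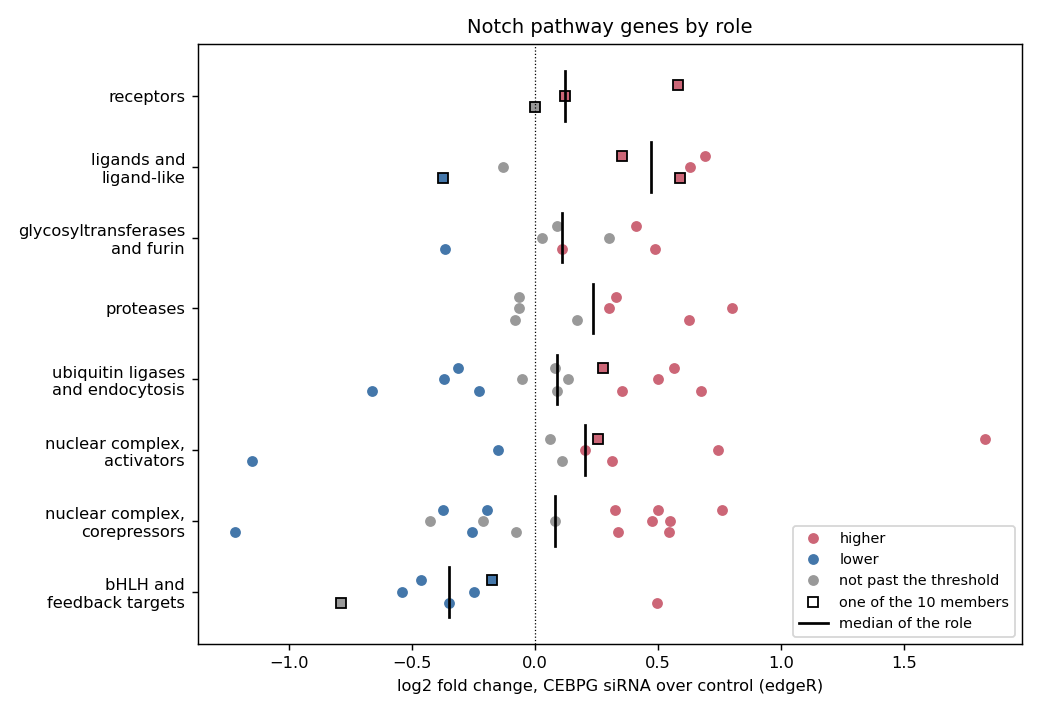
Log2 fold change (CEBPG siRNA over control, edgeR) of the 68 tested pathway genes in 8 roles, coloured by call, with squares for the 10 members and a black line for each role's median. The medians are between 0.08 and 0.47 in 7 roles and -0.35 for the bHLH and feedback targets.

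Among ligands and ligand-like genes, 4 of 6 tested rose and 1 fell, with a median of 0.47. Besides JAG2 and DLL1, the rises were in DLK2, a Delta-like relative, at 0.69 ± 0.11 (SE, with adjusted p = 6.3e-05 in edgeR), and EGFL7, which encodes a secreted protein with EGF-like repeats, at 0.63 ± 0.060 (SE, with adjusted p = 3.85e-07 in edgeR). DLK2 had 143 and 164 counts in control and 257 and 272 in siRNA libraries, with no overlap. DLL4 was too low to test, at a mean of 9 counts in control libraries.

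Of the 8 proteases and gamma-secretase subunits that cut the receptor, 4 rose and none was called lower, with a median of 0.23. The 4 not called were ADAM10 at -0.06, APH1A at -0.06, PSENEN at 0.17 and PSEN2, the lowest, at -0.08. Their edgeR adjusted p-values were 0.188, 0.22, 0.0514 and 0.497, in that order. Per length APH1A was at 50.6 ± 0.59 RPKM in control and 51.8 ± 1.95 RPKM in siRNA cells (SD, n = 2). Its relative APH1B was at 1.45 ± 0.17 and 2.71 ± 0.23 RPKM (SD, n = 2). APH1B, a gamma-secretase subunit, had 114 and 134 counts in control and 244 and 217 in siRNA libraries. It rose by a log2 fold change of 0.80 ± 0.12 (SE, with adjusted p = 4.8e-05 in edgeR). NCSTN, the gene of nicastrin, which admits substrates to gamma-secretase, rose at 0.63 (SE 0.043), from 117 ± 2.48 to 181 ± 4.76 CPM (SD, n = 2). The sheddase gene ADAM17 rose at 0.30 ± 0.043 (SE, with adjusted p = 3.14e-05 in edgeR). EGFL7, NCSTN, ADAM17 and the 4 genes not called were chosen after their values were seen, and 4 to 5 proteases were higher in every alternative.

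Of 7 glycosyltransferase and furin genes, which modify or mature the receptor, 3 rose and 1 fell. MFNG, a Fringe enzyme that lengthens sugars on Notch, had a log2 fold change of 0.49 ± 0.12 (SE, with adjusted p = 0.00255 in edgeR). EOGT, which adds another sugar to EGF-like repeats, had one of -0.37 ± 0.076 (SE, with adjusted p = 0.000852 in edgeR). Calls in this role were unsteady, with 0 to 5 higher over the alternatives; MFNG was lost without Control replicate 1, siCEBPG replicate 1 or siCEBPG replicate 2, and EOGT without Control replicate 2 or siCEBPG replicate 2.

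Of 13 ubiquitin ligase and endocytosis genes, 5 were higher and 4 lower, with a median of 0.09. These are 38.5% and 30.8%, against 25.5% and 28.8% of all genes tested, which were also divided. The related ligase genes NEURL1 and NEURL1B, which act on ligands, moved in opposite directions. NEURL1 fell by 0.66 ± 0.048 in log2 units (SE, with adjusted p = 2.06e-08 in edgeR), from 107 ± 2.56 to 67.4 ± 0.38 CPM (SD, n = 2). NEURL1B rose at 0.68 ± 0.076 (SE, with adjusted p = 2.28e-06 in edgeR), from 24.4 ± 1.12 to 38.9 ± 2.55 CPM (SD, n = 2).

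Of 9 genes of the nuclear activator complex, 5 rose and 2 fell. Mastermind proteins bind RBPJ and the receptor fragment. MAML3 had 7 and 6 counts in control and 27 and 23 in siRNA libraries. It passed the filter on low counts only through the siRNA libraries, so it had to differ, and its call, 1 of the 5, is no support for a rise in this role. MAML1, the most abundant Mastermind gene, was at 0.20 ± 0.041 (SE, with adjusted p = 0.000692 in edgeR). MAML2, at 22 to 49 counts, was at 0.74 (edgeR adjusted p = 0.0165), a call lost with DESeq2 and on omitting any one of the 4 libraries. KAT2B, the gene of an acetyltransferase that assists the complex, fell by 1.15 ± 0.094 in log2 units (SE, with adjusted p = 6.97e-08 in edgeR). MAML1, MAML2 and SNW1 were chosen after their values were seen. The count of 5 was 3 without Control replicate 2 and 3 without siCEBPG replicate 1. The second gene that fell, SNW1, was at -0.15 (edgeR adjusted p = 0.013), and 10 of 13 alternatives called 1 gene of this role lower.

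Of 15 corepressor genes, 7 rose and 4 fell, with a median of 0.08. CTBP2, which encodes a corepressor that RBPJ partners recruit, fell by 1.22 ± 0.061 in log2 units (SE, with adjusted p = 3.41e-10 in edgeR), from 102 ± 2.54 to 43.5 ± 4.14 CPM (SD, n = 2). AES, the gene of a short Groucho-family protein, rose at 0.76 ± 0.046 (SE, with adjusted p = 2.66e-09 in edgeR).

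The bHLH and feedback targets had the reverse balance. They are called targets after the name of this role, and the response of each to Notch was not tested here. Of 7 tested, 5 were lower and 1 higher, with a median log2 fold change of -0.35. HES7 had 500 and 570 counts in control and 384 and 400 in siRNA libraries, with no overlap. It fell by 0.54 ± 0.080 in log2 units (SE, with adjusted p = 3.91e-05 in edgeR), past the threshold in all 13 alternatives. NRARP, the feedback inhibitor, had 957 and 985 counts in control and 877 and 867 in siRNA libraries. It fell by 0.25 ± 0.054 in log2 units (SE, with adjusted p = 0.00118 in edgeR). HES6 was at -0.46 (edgeR adjusted p = 0.00228) and HES4 at -0.35 (edgeR adjusted p = 0.00508). HES4 was called in 8 of 13 alternatives, and HES6 and NRARP in all but the one without Control replicate 2.

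HES2 was the gene of this role that rose, at 0.49 ± 0.10 (SE, with adjusted p = 0.000943 in edgeR), from 167 and 183 counts to 276 and 250. HES4, HES6 and NRARP were chosen after their values were seen. Without Control replicate 2 only 1 target was called lower, without siCEBPG replicate 1 or siCEBPG replicate 2 the number was 3, with limma on RPKM 3, and without Control replicate 1 HES2 was no longer called. HES7 is known from mouse work for the segmentation clock, and HES6 as an inhibitor of HES1.

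Words that C/EBP proteins are known to bind were searched in the members' promoters. For 8 of the 10 members RefSeq's table held 12 promoters, 5 of them of RBPJ. The composite C/EBP-ATF element TGATGNAA, on either strand, was found in 0 of the 12, and in 3.6% of all 35116 promoters. The C/EBP word TTGCNNAA was found in the NUMB promoter, as TTGCCCAA starting 226 bases before the gene start, and in 1 RBPJ promoter, against 10.5% of all. These letters were searched only in windows of 300 bases.

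The 7-base word GGCTATT, taken from an earlier look at these data and so no independent evidence, was also searched in the members' transcripts. Genes with it in the 3' UTR were called lower in 57.4% of 953 cases, against 30.7% of 10458 genes without it. The sites in 3' UTRs are shown with the word in capitals, from GENCODE transcripts on GRCh38, because CEBPG, NOTCH3 and NOTCH2 carry it.
CEBPG site (chr19:33379810-33379816, plus strand): gacccattggaGGCTATTttctgggatca
NOTCH3 site (chr19:15159742-15159748, minus strand): aggtatttttaGGCTATTtttgtaatatg
NOTCH2 site (chr1:119993062-119993068, minus strand): tttgtgtttgtGGCTATTttaatagagta
The NOTCH2 site belongs to a shorter alternative transcript. NOTCH2 was called higher and NOTCH3 was not called, except that NOTCH3 was called lower with the trend on GC content and length removed, as given above. CEBPG, the siRNA target, was lower. JAG2 has the word at 2 places in its coding sequence, and rose. JAG1 and HES1, the 2 members that fell, do not have it in their GENCODE transcripts. A second 7-base word, CGGAGAA, was also searched, and is likewise no independent evidence. Among the members only JAG2 has CGGAGAA, in its coding sequence. Genes with CGGAGAA anywhere in a transcript were called higher in 39.2% of 1937 cases, against 23.6% of 9474 genes without it.

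In the authors' deposited table, 5 of the 10 members are listed as higher at an adjusted p under 0.05 and 1 as lower. Of all its 17825 rows, 12.4% and 18.0% are. These shares are not limited to tested genes and may be too low as a background. DESeq2 as run here gave an adjusted p to only 13332 genes. NOTCH1 is at 0.57, DLL1 at 0.58, JAG2 at 0.35, NUMB at 0.27, RBPJ at 0.25 and JAG1 at -0.38 on the log2 scale in the authors' deposited table. To the digits shown, these values equal those of the DESeq2 alternative run here on the same counts. They are therefore no independent evidence. NOTCH2 and HES1 are not past that threshold in the authors' deposited table, with adjusted p-values of 0.12 and 0.243.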

How the data were processed

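RNA of KYSE150 cells was sequenced in 4 libraries, 2 control and 2 with CEBPG siRNA, grouped by sample title. The submitters' processing notes name hg19, RSEM 1.2.12, HISAT2 2.0.4, Bowtie2 2.2.5 and DESeq without their roles. Neither annotation nor strandedness of counting is stated. The deposited counts are whole numbers per gene name; every row has at least 10 counts over the 4 libraries. RPKM values were deposited by the authors, per the file headers. Per the file headers, the authors also deposited a base mean (a signal that is never negative), a test statistic (used as a score), a log2 fold change with its SE, and a p-value with its adjusted form.

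Counts were tested with edgeR 4.0.16 in R 4.3.3 (TMM, filterByExpr with a minimum count of 10, quasi-likelihood F test, two-sided, group as the only term), and p-values were adjusted by Benjamini-Hochberg over 14207 genes, with 0.05 as the threshold. The procedure was tested on simulated data. Alternatives used DESeq2 1.42.0, limma 3.58.1 on log2(RPKM + 1) and log2(RPKM + 0.1), other scalings, no filter, the replicate number as a block and each library left out. A fit with the GC and length trend taken out (mgcv 1.9.3), chosen after seeing the data, used the 86.2% of tested genes matched to GENCODE 29. GENCODE and RefSeq coordinates are GRCh38, while the counts are on the authors' build. Named genes were the 10 members, CEBPG and, per role, the called gene outside the members with the largest rise and the largest fall. The members and lists were chosen with earlier results of these data known. One gene of the pathway list is not reported here by name.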

Additional observations from a re-analysis of the deposited data

How the results depend on the processing

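Of the 10 members, 6 were higher in edgeR and 4 to 6 were over the alternatives, and 2 were lower. Only 1 (JAG1) was lower with DESeq2 size factors, upper-quartile factors, total counts, DESeq2 or limma with either pseudocount, and 1 to 1 with a library left out. With a library left out, 1737 to 2345 of all genes were higher and 2572 to 3049 lower, and DESeq2 called 2210 higher. Of the pathway genes, 10 to 13 were lower with a library left out, against 17, the lowest without Control replicate 2. The fewer libraries of these fits are part of their construction; other causes were not tested.

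NOTCH3 changed sign without passing the threshold, at 0.00 with DESeq2 size factors, 0.07 with upper-quartile factors, 0.10 with total counts, 0.07 and 0.09 with limma at pseudocounts of 1 and 0.1, 0.02 without Control replicate 1 and 0.03 without siCEBPG replicate 2, with -0.03 as the lowest value with a library left out. The replicate block gave 6 members higher and 2 lower, with 3811 and 4319 genes overall; same-numbered libraries share only a number, and their deviations correlated at 0.049 over genes. The low counts of HEY1 and MAML3 limit what can be said of them.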
